A study of Mus musculus with 18 samples.

Results

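10 genes of the C-type natriuretic peptide and cyclic nucleotide system were followed in the mouse ovary, out of 30172 genes listed in the expression values. They were taken as a named set, with earlier results of these data known: the ligand Nppc, the receptors Npr1, Npr2 and Npr3, the kinase Prkg1, and the phosphodiesterases Pde3a, Pde4b, Pde4d, Pde5a and Pde10a.

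Nppc encodes C-type natriuretic peptide, which the granulosa cells of growing follicles release. The peptide binds NPR2, a receptor of the surrounding cumulus cells that makes cyclic GMP (cGMP). cGMP passes through gap junctions into the oocyte, where it holds back PDE3A, the main oocyte enzyme that breaks down cyclic AMP, and so helps to keep the oocyte in meiotic arrest. NPR1 is the corresponding receptor for the atrial and brain peptides, NPR3 is a clearance receptor that takes the peptides up, PRKG1 is a kinase activated by cGMP, and the phosphodiesterases end the signal by hydrolysing cGMP or cyclic AMP.

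The libraries were made from whole ovaries of wild-type C57BL/6J female offspring at postnatal day 3 (Pd3), Pd7 and Pd21. Dams of the F1-HHcy group received a 3% methionine diet to raise homocysteine (hyperhomocysteinemia), given in the labels as starting 4 weeks before mating and kept up through gestation and lactation (the study's methods describe a longer feeding before mating), and dams of the F1-Control group received a control diet. Each of the 6 groups held 3 libraries, and neither the labels nor the methods say whether a library came from 1 pup or from a pool, or whether pups shared a dam, so a p-value measures the spread between these libraries only. Pd3 and Pd7 were labelled as batch 1 and Pd21 as batch 2, so that age and batch cannot be told apart wherever Pd21 was set against another day.

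Each library held between 33630304 and 39398922 fragments on genes. Ovarian identity was plain, since summed oocyte markers reached at least 797 FPKM and summed granulosa markers at least 175 FPKM in every library. These sums do not show that other tissue was absent. At Pd21 summed oviduct epithelium markers were 104 to 505 FPKM in F1-Control and 13.6 to 28.0 FPKM in F1-HHcy. Whether oviduct or fat tissue came with the ovaries was not tested. The library F1-Control Pd7 replicate 2 stood apart in its value total, 532003 FPKM against 400360 to 469733 in the other 17, and F1-HHcy Pd21 replicate 1 stood apart in Npr1 and Pde10a.

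Levels are given as FPKM, fragments divided by gene length and library depth. The diet groups of 1 day were compared with limma on log2(FPKM + 1), a scale that understates the change of low genes, restricted to genes that reached 1 FPKM in 3 or more libraries of that day. Calls of higher or lower required an unadjusted p under 0.05 and a log2 difference above 0.58 in size, the criterion in the titles of the study's volcano plots, and the adjusted p over all genes tested is printed beside it. 6 members passed this filter at Pd3 and at Pd7 (Nppc, Npr1, Npr2, Npr3, Pde3a and Pde5a), and Prkg1 was a 7th at Pd21. Pde4b, Pde4d and Pde10a never passed it.

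The promoters of the ligand Nppc and of the 3 natriuretic receptor genes are shown because Nppc and Npr3 were called with diet at Pd3 and Npr1 and Npr2 at Pd7. Members called outside these 4 genes are described further on without their promoters. Each run is the 250 bases before the RefSeq start of the gene (GRCm38.p6), written from 5′ to 3′ on the strand of the gene. Capitals mark matches, on either strand, to the GC box GGGCGG, the TATA box TATAAA or the cyclic AMP response element core site TGACG.
Nppc, chr1:86670574-86670823, minus strand: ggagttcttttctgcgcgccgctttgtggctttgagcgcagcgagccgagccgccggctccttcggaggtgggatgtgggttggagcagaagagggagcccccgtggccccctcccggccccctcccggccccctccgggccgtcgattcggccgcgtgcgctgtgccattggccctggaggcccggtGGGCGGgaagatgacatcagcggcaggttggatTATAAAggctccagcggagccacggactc
Npr1, chr3:90465867-90466116, minus strand: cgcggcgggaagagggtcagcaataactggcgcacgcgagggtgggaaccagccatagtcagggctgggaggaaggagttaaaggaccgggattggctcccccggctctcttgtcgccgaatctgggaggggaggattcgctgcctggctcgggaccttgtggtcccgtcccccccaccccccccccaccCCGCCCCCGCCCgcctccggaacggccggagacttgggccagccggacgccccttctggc
Npr2, chr4:43631685-43631934, plus strand: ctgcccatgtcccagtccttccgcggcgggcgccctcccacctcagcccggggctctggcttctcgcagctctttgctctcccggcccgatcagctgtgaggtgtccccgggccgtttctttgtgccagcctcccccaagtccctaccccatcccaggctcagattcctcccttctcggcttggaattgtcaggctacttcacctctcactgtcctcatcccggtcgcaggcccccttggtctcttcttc
Npr3, chr15:11907372-11907621, minus strand: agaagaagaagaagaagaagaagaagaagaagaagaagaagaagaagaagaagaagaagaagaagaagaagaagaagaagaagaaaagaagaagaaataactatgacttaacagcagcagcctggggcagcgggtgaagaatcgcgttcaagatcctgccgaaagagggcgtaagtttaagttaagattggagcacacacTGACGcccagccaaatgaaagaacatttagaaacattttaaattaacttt
The Nppc promoter held a GC box beginning 62 bases before the start and a TATA box beginning 29 bases before it, and 69.2% of its bases were G or C. Npr1 held 2 GC boxes read on the opposite strand, and the Npr2 window held no match to any motif searched. Npr3 had the lowest share of G and C among the 4 windows (38.8%), a long run of AAG repeats and a single core site, TGACG, beginning 50 bases before the start. Over all 32851 promoter windows of this length, 32.7% held GGGCGG, 12.4% held TATAAA and 17.8% held TGACG. The full cyclic AMP response element TGACGTCA (1.55% of all windows, each of which also holds the core site) and the steroidogenic factor 1 site CAAGGTCA (1.33%) were searched as well and had no match in the 4 windows. These matches describe letters only.

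The question at each day was whether maternal HHcy shifted the members in the ovary of the offspring. At Pd3, 3 of the 6 members tested were called higher in F1-HHcy (Nppc, Npr3 and Pde5a) and none lower. Nppc had an adjusted p of 0.0229 and Npr3 of 0.0532, but in the model of all 18 libraries these were 0.0609 and 0.00400, so which of the pair was under 0.05 depended on the model. Npr3 entered the test through its F1-HHcy libraries alone and Nppc through those and 1 control, so the count and the median of the members tested are descriptions only. Over all 13277 genes tested at Pd3, 5.0% were called higher and 4.74% lower. At Pd7, 2 of the 6 members tested were called higher, the receptors Npr1 and Npr2, none was called lower, and the background over 13299 genes was 9.06% higher and 7.35% lower. At Pd21 none of the 7 members tested was called in limma and none had an unadjusted p under 0.05, against a background of 0.0824% higher and 5.06% lower over 13350 genes. The median log2 difference of the members tested was 0.52 at Pd3, 0.27 at Pd7 and -0.086 at Pd21, beside medians over all genes tested of -0.031, -0.0015 and -0.011.

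**Figure D1:**
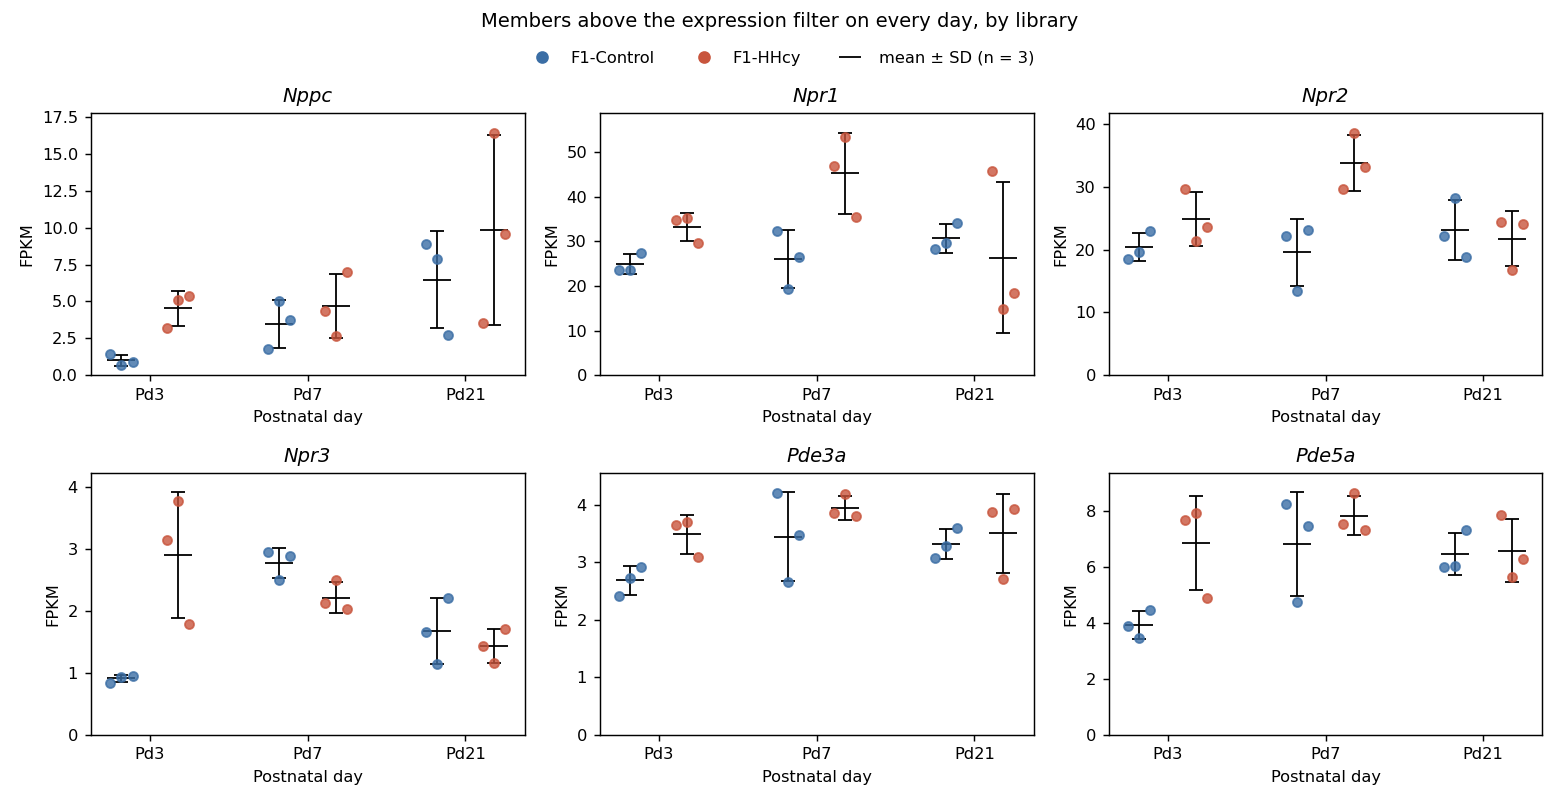
FPKM (y axis, from 0, with its own range in each panel) of the 6 members that passed the filter on every day, by postnatal day (x axis); each point is 1 library, blue for F1-Control and red for F1-HHcy, and the bars give the mean and SD of 3 libraries. At Pd3 the F1-HHcy libraries of Nppc (3.18 to 5.35) lay above the F1-Control libraries (0.696 to 1.42), and at Pd7 those of Npr1 and Npr2 lay above their controls.

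Nppc, the ligand, lies on chromosome 1 (86666291 to 86670571, minus strand; GRCm38, GENCODE annotation, as for all positions here). At Pd3 its level was 1.42, 0.696 and 0.902 FPKM in F1-Control replicates 1 to 3 and 3.18, 5.09 and 5.35 FPKM in F1-HHcy. All 3 F1-HHcy libraries were above all 3 controls, at 120 to 192 fragments against 26 to 52. The means were 1.01 ± 0.372 and 4.54 ± 1.18 FPKM (SD, n = 3), a log2 difference of 1.46 ± 0.21 (SE) with an adjusted p of 0.0229 in limma. The study placed Nppc in its own heatmap from these libraries, so its direction at Pd3 is not independent evidence, and 2 of the 3 controls were under 1 FPKM, so that the gene passed the filter through the F1-HHcy libraries.

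At Pd7 Nppc was 1.75, 4.99 and 3.73 FPKM in F1-Control and 4.36, 2.68 and 6.99 FPKM in F1-HHcy. The groups overlapped, with a log2 difference of 0.34 (95% interval -0.39 to 1.07, adjusted p = 0.50). At Pd21 it was 8.88, 7.86 and 2.7 FPKM in F1-Control and 3.57, 16.4 and 9.57 FPKM in F1-HHcy, again with overlap and a wide interval of the log2 difference (-0.73 to 1.65). Ordered by mean, F1-Control Pd3 was the lowest of the 6 groups and lay below every library of the next group, F1-Control Pd7, while each later pair of neighbours overlapped, up to 9.86 ± 6.44 FPKM in F1-HHcy Pd21.

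Npr2, the guanylyl cyclase receptor of C-type natriuretic peptide, lies on chromosome 4 (43631935 to 43651244, plus strand). Its level at Pd7 was 22.1, 13.5 and 23.1 FPKM in F1-Control and 29.7, 38.6 and 33.2 FPKM in F1-HHcy. The groups did not overlap, and the means of 19.6 ± 5.31 and 33.9 ± 4.49 FPKM differed by 0.79 ± 0.21 on the log2 scale (adjusted p = 0.0374). The lowest control was F1-Control Pd7 replicate 2, and without that library the log2 difference was 0.55 and the call was lost (adjusted p = 0.0621). At Pd3 the groups overlapped, at 18.6 to 22.9 FPKM in F1-Control and 21.4 to 29.7 FPKM in F1-HHcy, and at Pd21 they overlapped between 16.7 and 28.3 FPKM.

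Npr1, the receptor of the atrial and brain peptides, lies on chromosome 3 (90450591 to 90465866, minus strand) and had the highest mean level of the 10 members in every group. At Pd7 it measured 32.2, 19.3 and 26.5 FPKM in F1-Control and 46.9, 53.3 and 35.5 FPKM in F1-HHcy. All F1-HHcy libraries were higher, with means of 26.0 ± 6.46 and 45.2 ± 9.05 FPKM and a log2 difference of 0.78 ± 0.21 (adjusted p = 0.0406). Without F1-Control Pd7 replicate 2 the difference was 0.59 (adjusted p = 0.106) and the call was kept. At Pd3 Npr1 was also higher in every F1-HHcy library, 29.6 to 35.2 against 23.6 to 27.5 FPKM, but the log2 difference of 0.40 was under the size required (adjusted p = 0.104).

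At Pd21 Npr1 was 28.2, 29.5 and 34.2 FPKM in F1-Control and 45.7, 14.8 and 18.4 FPKM in F1-HHcy. F1-HHcy replicate 1 was above all controls and the other 2 below them, so the log2 difference of -0.37 had an interval from -1.19 to 0.45. Without that replicate Npr1 was called lower, by -0.84 (adjusted p = 0.0589).

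Npr3, the clearance receptor, lies on chromosome 15 (11839896 to 11907287, minus strand). At Pd3 it measured 0.836, 0.939 and 0.952 FPKM in F1-Control and 3.14, 3.77 and 1.78 FPKM in F1-HHcy. The groups did not overlap, at 244 to 279 fragments against 509 to 1121. The means of 0.909 ± 0.0634 and 2.90 ± 1.02 FPKM gave a log2 difference of 0.99 ± 0.21 (adjusted p = 0.0532), and since every control was under 1 FPKM the gene passed the filter through F1-HHcy alone. Without F1-HHcy replicate 1, 2 or 3 it therefore could not pass the filter.

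At Pd7 the order of the groups for Npr3 was the opposite, with 2.95, 2.50 and 2.88 FPKM in F1-Control and 2.12, 2.50 and 2.02 FPKM in F1-HHcy. The highest F1-HHcy library, at 697 fragments, and the lowest control, at 733, were nearly equal in FPKM, and the log2 difference of -0.23 did not pass the test (adjusted p = 0.303). At Pd21 the libraries overlapped between 1.14 and 2.21 FPKM. The level of Npr3 in F1-HHcy at Pd3 (2.90 FPKM) and that in F1-Control at Pd7 (2.78 FPKM) were neighbours in the order of groups and overlapped.

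**Figure D2:**
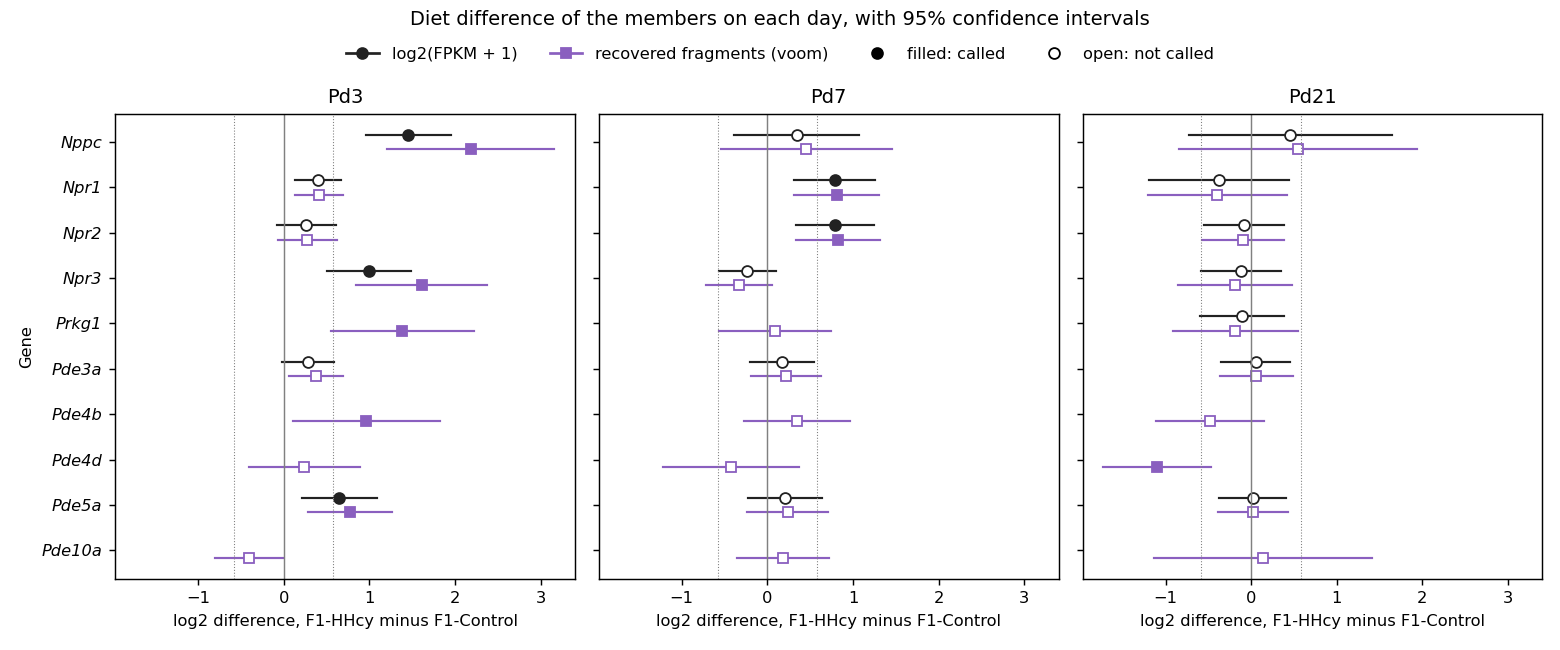
Log2 difference of F1-HHcy minus F1-Control (x axis) for the 10 members (y axis) at Pd3, Pd7 and Pd21, with 95% confidence intervals; circles are from log2(FPKM + 1), squares from limma-voom on recovered fragments, filled symbols were called and dotted lines mark 0.58 in either direction. Filled symbols lie on the right at Pd3 and Pd7, and at Pd21 the only filled symbol is the fragment value of Pde4d, at -1.10.

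FPKM values of a gene were whole multiples of what 1 fragment is worth in each library, so that the fragments behind them and the gene length used for them could be recovered for all 27294 genes above 0 in at least 3 libraries. The lengths of 3 phosphodiesterases were far above the union of their annotated exons: 53295 against 12006 bases for Pde4d, 20779 against 10560 for Pde4b and 23501 against 12849 for Pde10a. For Nppc both lengths were 1042 bases, and for Npr1, Npr2, Npr3, Prkg1 and Pde5a the recovered length was the shorter. Pde4b, Pde4d and Pde10a were under or near 1 FPKM while each library held 89 to 349 fragments of Pde4b, 162 to 612 of Pde4d and 221 to 1028 of Pde10a. A level in FPKM of these 3 genes against another gene therefore depends on the length used, while a comparison of 1 gene between libraries does not. A second fit, chosen after the data were seen, applied limma-voom to the recovered fragments of genes with at least 10 fragments in at least 3 of the 6 libraries, and all 10 members entered it on each day.

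In this fit 5 members were called higher at Pd3 (Nppc, Npr3, Pde5a, Prkg1 and Pde4b), against 6.95% of the 18044 genes tested, and none lower, against 6.55%. The same pair, Npr1 and Npr2, was called higher at Pd7 (without F1-Control replicate 2, Npr1 was called higher and Pde4d lower, and Npr2 was not called), where the background was 13.1% higher and 9.75% lower over 18121 genes. At Pd21 Pde4d was called lower and no member higher, against 7.32% lower and 0.193% higher over 18135 genes. On this scale, which has no added constant of 1 FPKM, the Pd3 difference was 2.18 for Nppc (adjusted p = 0.0484), 1.61 for Npr3 (adjusted p = 0.0574) and 0.78 for Pde5a (adjusted p = 0.101).

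Prkg1, the cGMP-dependent kinase of smooth muscle and many other cells, lies on chromosome 19 (30564489 to 31765033, minus strand). At Pd3 its libraries held 47, 89 and 74 fragments in F1-Control and 149, 165 and 233 in F1-HHcy, or 1.98 ± 0.585 and 5.16 ± 1.41 CPM (SD, n = 3), where CPM is the recovered fragments scaled to a common library total. Every F1-HHcy library was higher, and the log2 difference on fragments was 1.39 ± 0.37 (SE), with an adjusted p of 0.0934 in limma-voom. The call was kept without any 1 of the 6 libraries, at 1.13 to 1.57. At Pd7 the means were 5.97 and 6.14 CPM and at Pd21 11.5 and 10.4, both with overlap. F1-Control Pd3 thus had the lowest mean for Prkg1, as it had for Nppc, Npr1, Npr3, Pde3a, Pde4b and Pde5a.

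Pde3a, the phosphodiesterase that cGMP inhibits in the oocyte, lies on chromosome 6 (141249269 to 141507448, plus strand). At Pd3 it measured 2.41, 2.73 and 2.91 FPKM in F1-Control and 3.64, 3.70 and 3.1 FPKM in F1-HHcy. The groups did not overlap, but the log2 difference of 0.28 (95% interval -0.023 to 0.59) was not called. On fragments the difference was 0.38 (95% interval 0.065 to 0.69, adjusted p = 0.173 in limma-voom), also not called. At Pd7 and Pd21 the groups overlapped, within 2.66 to 4.20 FPKM, with intervals of the log2 difference from -0.21 to 0.56 and from -0.35 to 0.46.

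Pde5a, which hydrolyses cGMP, lies on chromosome 3 (122728947 to 122859374, plus strand). At Pd3 it was 3.91, 3.46 and 4.47 FPKM in F1-Control and 7.71, 7.95 and 4.91 FPKM in F1-HHcy. F1-HHcy replicate 3 was near the controls and the other 2 well above them. The means of 3.95 ± 0.504 and 6.86 ± 1.69 FPKM differed by 0.65 ± 0.19 on the log2 scale (adjusted p = 0.104), and the call was lost without F1-HHcy replicate 1 (0.56), F1-HHcy replicate 2 (0.54) or F1-Control replicate 2 (0.576), where it fell just short of the size required. At Pd7 and Pd21 the groups overlapped, with means of 6.83 against 7.85 FPKM and 6.47 against 6.60 FPKM.

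**Figure D3:**
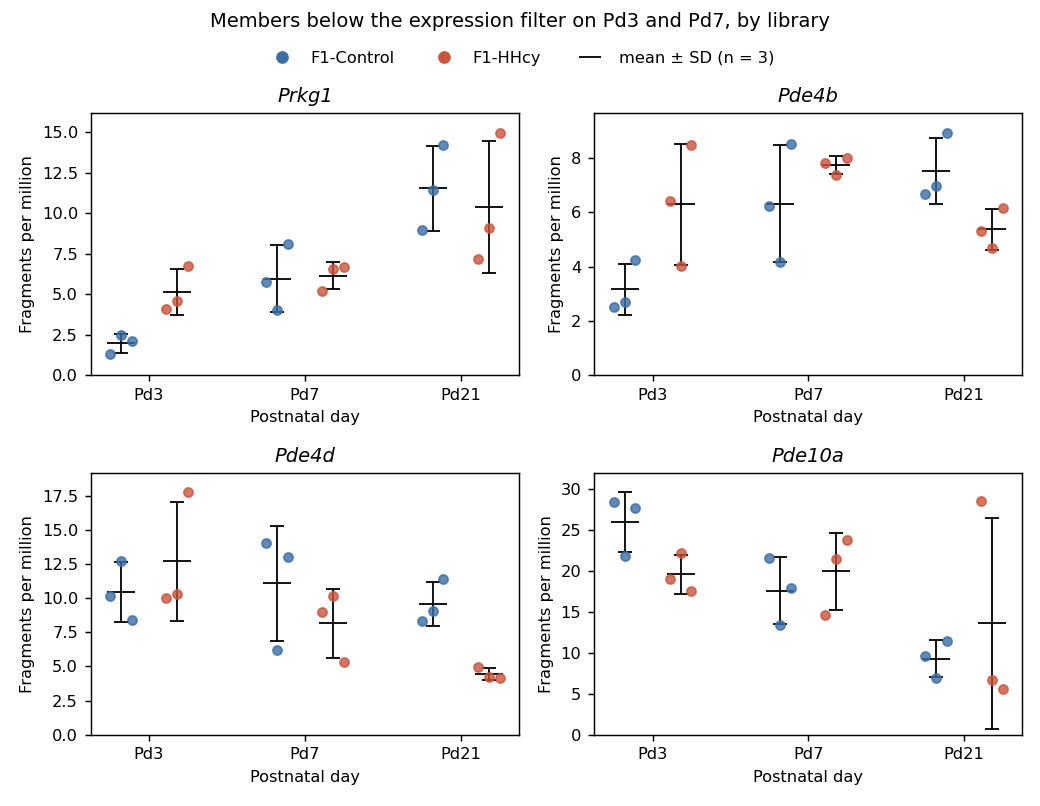
CPM of recovered fragments (y axis, from 0, with its own range in each panel) of Prkg1, Pde4b, Pde4d and Pde10a by postnatal day (x axis); each point is 1 library, blue for F1-Control and red for F1-HHcy, with the mean and SD of 3 libraries. Prkg1 was higher in each F1-HHcy library at Pd3, Pde4d was lower in each at Pd21, and 1 F1-HHcy library of Pde10a at Pd21 lay far above the rest.

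Pde4d, a phosphodiesterase specific to cyclic AMP, lies on chromosome 13 (108449948 to 109953461, plus strand). At Pd21 its libraries held 324, 344 and 445 fragments in F1-Control and 180, 162 and 165 in F1-HHcy. Each F1-HHcy library was below every control, at 4.46 ± 0.460 against 9.59 ± 1.60 CPM, a log2 difference of -1.10 ± 0.28 (adjusted p = 0.0972 in limma-voom), and the call was kept without any 1 of the 6 libraries, at -1.19 to -0.97. At Pd3 and Pd7 the groups overlapped, with differences of 0.24 and -0.42 that were not called, but without F1-Control replicate 2 the Pd7 difference was -0.79 and was called (adjusted p = 0.121).

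Pde4b, another cyclic AMP phosphodiesterase, lies on chromosome 4 (102087543 to 102607259, plus strand). At Pd3 it had 89, 97 and 149 fragments in F1-Control and 232, 144 and 292 in F1-HHcy. The groups overlapped by 1 library, the difference was 0.96 ± 0.38 (adjusted p = 0.198 in limma-voom), and the call was lost without F1-HHcy replicate 1 or 3 or without F1-Control replicate 1 or 2 (0.72 to 0.92). At Pd21 every F1-HHcy library was below the controls, 180 to 243 against 260 to 349 fragments, but the difference of -0.48 was not called (adjusted p = 0.902).

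Pde10a, which hydrolyses both cyclic nucleotides, lies on chromosome 17 (8525372 to 8986648, plus strand). It was the only member with a lower mean in F1-HHcy at Pd3, at 690, 798 and 605 fragments against 1003, 781 and 971, with a difference of -0.40 that was under the size required. At Pd7 the groups overlapped, with a difference of 0.18. At Pd21 F1-HHcy replicate 1 held 1028 fragments, the other 5 libraries 221 to 447, and the sign of the difference turned when that library was left out (0.14 with it, -0.58 without).

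The diet groups did not overlap for 6 of the 10 members at Pd3, 3 at Pd7 and 2 at Pd21, including members under the filter. Among all genes tested on those days, 27.9%, 39.0% and 10.5% had groups that did not overlap.

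Whether the diet effect itself changed between days was tested in 1 model of all 18 libraries, over 14607 genes and with 8 members, Pde4b and Pde4d being under the filter. For Npr3 the diet effect at Pd7 was lower than that at Pd3 by -1.23 ± 0.26 (adjusted p = 0.0529), the only member called in this contrast, in which 5.28% of all genes were called lower and 4.75% higher. From Pd3 to Pd21 Npr3 gave -1.12 ± 0.26 (adjusted p = 0.0194) and Pde5a -0.63 ± 0.27 (adjusted p = 0.249), against 9.04% of genes called lower and 4.00% higher. From Pd7 to Pd21 the effect on Npr1 was lower by -1.16 ± 0.41 (adjusted p = 0.133) and that on Npr2 by -0.88 ± 0.29 (adjusted p = 0.112), against 9.72% lower and 5.55% higher. The change for Nppc from Pd3 to Pd7 was -1.12, with an interval from -2.45 to 0.22 (adjusted p = 0.428), and was not called. It was called with a pseudocount of 0.1, which weighs low values more (-1.66, adjusted p = 0.353), and without F1-Control Pd7 replicate 1 (-1.43, adjusted p = 0.278).

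**Figure D4:**
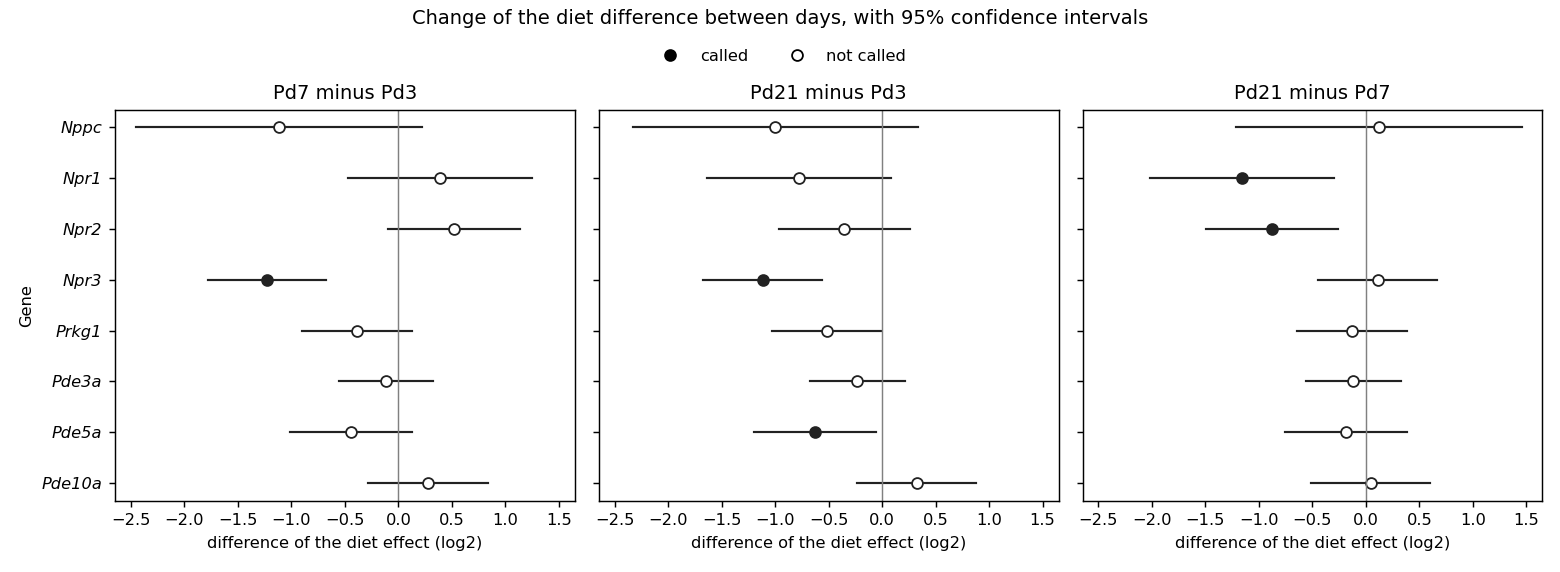
Change of the diet effect between days (x axis, log2; F1-HHcy minus F1-Control on the later day less the same on the earlier day) for 8 members (y axis), with 95% confidence intervals; filled circles were called. Npr3 lies left of 0 in both contrasts with Pd3, and Npr1 and Npr2 lie left of 0 in Pd21 minus Pd7.

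The 2 ages of batch 1 were compared within each diet in the same model. In F1-Control, 3 members were called higher at Pd7 than at Pd3: Nppc by 1.11 ± 0.45 (adjusted p = 0.116), Npr3 by 0.98 ± 0.19 (adjusted p = 0.00408) and Pde5a by 0.64 ± 0.19 (adjusted p = 0.0407), against 6.76% of genes called higher and 6.89% lower. In F1-HHcy no member was called (0 at an unadjusted p under 0.05 by limma), against 5.76% higher and 6.03% lower, and the differences of the same 3 genes were -0.011, -0.24 and 0.19. These contrasts share libraries with the diet contrasts at Pd3: the 3 genes called with age in F1-Control are the 3 called with diet at Pd3, and a low F1-Control Pd3 value enters both.

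Among 72 other genes of the pathway found in the values, 40 were tested at Pd3 and 6 called higher, where 5.0% of all genes tested were. At Pd7 42 were tested with 9 called higher and 2 lower, beside 9.06% and 7.35% of all genes, and at Pd21 42 were tested with none called (by limma), beside 0.0824% and 5.06%. The same shares stand behind each count of the single lists that follow. Nos2 at Pd3 and Lhcgr at Pd7 passed the filter through F1-HHcy, where they were high, so these counts and medians are descriptions only. The median log2 difference of the pathway genes tested was 0.060, 0.12 and 0.027 at the 3 days. Of the natriuretic peptides and their processing enzymes, 1 of 5 was tested on each day and none called, and of the other membrane guanylyl cyclases, 1 of 5 was tested, at Pd21 only, and not called.

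Gja1, the connexin 43 of granulosa gap junctions, was the most abundant of the genes called. It rose from 41.6 ± 6.68 to 129 ± 59.0 FPKM at Pd3 (log2 difference 1.52, adjusted p = 0.0480) and from 108 ± 38.1 to 267 ± 90.2 FPKM at Pd7 (1.30, adjusted p = 0.0185), the only one of 3 gap junction genes tested to be called. Prkar2b, a regulatory subunit of the cyclic AMP-dependent kinase, rose from 21.7 to 55.2 FPKM at Pd3 (1.17, adjusted p = 0.104) and from 42.4 to 126 FPKM at Pd7 (1.62, adjusted p = 0.00642). In the list of 11 tested genes of oocyte cyclic AMP and its kinase, Adcy9, an adenylyl cyclase, was the other call, at Pd7 only (2.77 to 5.62 FPKM, 0.81, adjusted p = 0.0291).

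On the nitric oxide arm, which makes cGMP through the soluble cyclase, Gucy1b1, a subunit of that enzyme, rose by 0.59 at Pd3 (5.93 to 9.56 FPKM, adjusted p = 0.121) and by 0.60 at Pd7 (7.82 to 12.2 FPKM, adjusted p = 0.0633). The more abundant Gucy1a1 of the same enzyme was not called, at 37.2 against 35.4 FPKM at Pd3 (-0.077) and 33.1 against 24.1 FPKM at Pd7 (-0.42). Gucy1a2 was not called either, with differences of -0.077 at Pd3 and -0.034 at Pd7. Nos2, the inducible nitric oxide synthase, rose from 0.934 to 4.86 FPKM at Pd3 (1.54, adjusted p = 0.0727) and from 4.75 to 12.7 FPKM at Pd7 (1.15, adjusted p = 0.0424). At Pd3 the Nos2 controls ranged from 0.483 to 1.70 FPKM and the F1-HHcy libraries from 2.07 to 7.08 FPKM. The gene thus passed the filter at Pd3 through F1-HHcy. Nos1, the neuronal synthase, fell at Pd7 from 7.69 to 3.35 FPKM (-0.94, adjusted p = 0.0318). In this list 2 of 6 genes tested were called higher at Pd3, and 2 higher and 1 lower of 6 at Pd7.

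Pde7b, which hydrolyses cyclic AMP, was higher in F1-HHcy at Pd3 (1.46 ± 0.0371 against 5.12 ± 0.751 FPKM, 1.31, adjusted p = 0.0142) and at Pd7 (3.82 against 8.98 FPKM, 1.10, adjusted p = 0.0169). Pde1a, a calcium-dependent phosphodiesterase, was lower at Pd7 (6.07 against 3.24 FPKM, -0.73, adjusted p = 0.0150). They were the calls among 10 other phosphodiesterases tested at Pd3 and 11 at Pd7. Mrvi1, a substrate of the cGMP-dependent kinase, rose from 2.15 to 5.03 FPKM at Pd3 (0.88, adjusted p = 0.138) and from 5.61 to 10.3 FPKM at Pd7 (0.83, adjusted p = 0.0469), the only call among 7 and 6 genes of cGMP supply and effectors tested. Fshr and Lhcgr, the gonadotropin receptors, were called at Pd7 (3.42 to 8.32 FPKM, 1.16, adjusted p = 0.0675, and 1.49 to 12.6 FPKM, 2.64, adjusted p = 0.0119), 2 of 4 tested in their list, and each is also in a marker list below. The Lhcgr controls at Pd7 ranged from 0.202 to 3.86 FPKM, with an SD of 2.06 around their mean. The F1-HHcy libraries of Lhcgr ranged from 6.06 to 17.6 FPKM, and the gene passed the filter through them.

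The 5 genes with the pattern most like that of Nppc over the 18 libraries, by Pearson's correlation of log2(FPKM + 1) across 14607 genes, were P2ry6 (0.93), Spin2c (0.91), Nap1l5 (0.90), Kazald1 (0.89) and Htra1 (0.89). All 5 had their lowest mean in F1-Control Pd3 and their highest in F1-HHcy Pd21, as Nppc did. Among the members the correlation with Nppc was highest for Prkg1 (0.65) and lowest for Pde10a (-0.73). The libraries share their day, diet and batch, so these values are a description.

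In whole ovaries, fewer cells of a type and less RNA per cell cannot be told apart. Markers of several cell types moved with diet on the days when members were called. A marker entered the tests by the same filter and could pass it through the diet group where it was high. Counts of markers called are therefore descriptions only, while the sums hold every marker of a list, tested or not. At Pd3 the summed granulosa markers were 175 to 184 FPKM in F1-Control and 212 to 498 FPKM in F1-HHcy, and 3 of the 6 tested were called higher. The 6 stroma markers were all called higher (366 to 507 against 685 to 902 FPKM), as were 4 of 6 pericyte markers (18.5 to 25.0 against 37.9 to 45.6 FPKM) and 4 of 6 endothelial markers (37.8 to 53.3 against 66.9 to 97.1 FPKM). Of 8 smooth muscle markers 3 were called higher, with sums that overlapped (119 to 171 against 95.5 to 442 FPKM). F1-HHcy replicate 3 stood apart there, at 95.5 FPKM against 442 and 338 in the other 2, and in theca markers, at 89.2 against 713 and 370 FPKM. It was also the F1-HHcy library lowest in Npr1, Npr3, Pde3a, Pde5a and Pde10a and the highest in Nppc, Prkg1, Pde4b and Pde4d. Of 10 oocyte markers, 5 were called higher and 1 lower (797 to 1068 against 1325 to 2015 FPKM), and all 6 erythroid markers were called lower (3914 to 11214 against 780 to 1108 FPKM). Of 8 surface epithelium markers 2 were called lower, and 1 of 3 theca markers tested was called higher, both with sums that overlapped. Macrophage sums were higher in F1-HHcy (18.8 to 23.0 against 26.8 to 29.7 FPKM), with 0 of 5 tested called. The 1 adipocyte marker tested was called higher (sums of 1.26 to 3.99 against 4.17 to 11.5 FPKM). The part of these shifts in the Pd3 values of Nppc, Npr3, Pde5a, Prkg1 and Pde4b was not tested.

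At Pd7, 6 of 9 granulosa markers (221 to 492 against 516 to 843 FPKM) and all 7 theca markers (233 to 468 against 1172 to 1230 FPKM) were called higher in F1-HHcy, while 7 of 10 oocyte markers were called lower and 1 higher (1663 to 2693 against 974 to 1474 FPKM). 5 of 8 markers of the surface epithelium were called lower, with sums of 521 to 883 FPKM in F1-Control and 229 to 438 FPKM in F1-HHcy. All 5 erythroid markers tested were called lower (925 to 5760 against 287 to 502 FPKM), and 2 of 8 smooth muscle markers were called higher, with sums that overlapped (412 to 706 against 565 to 705 FPKM). Pericyte sums did not overlap (36.4 to 47.1 against 48.2 to 52.5 FPKM), with 1 of 6 markers called higher and 1 lower. Endothelial sums did not overlap either (77.1 to 91.3 against 91.9 to 100 FPKM), with 1 of 6 markers called higher. Stroma sums overlapped (826 to 1022 against 564 to 973 FPKM), with 1 of 6 markers called higher and 1 lower. Macrophage sums were lower in F1-HHcy (27.1 to 34.3 against 22.7 to 24.8 FPKM), with 1 of 5 tested called lower. Of 4 adipocyte markers tested 2 were called higher, with sums that overlapped. Of 6 oviduct epithelium markers tested 1 was called higher and 2 lower. The part of these shifts in the values of Npr1 and Npr2 was not tested. At Pd21 all 8 markers of oviduct epithelium were called lower (104 to 505 against 13.6 to 28.0 FPKM), as were 7 of 8 surface epithelium, 4 of 5 adipocyte and 3 of 8 smooth muscle markers. The sums overlapped for adipocyte (56.2 to 340 against 8.25 to 81.5 FPKM) and smooth muscle markers (562 to 1148 against 451 to 641 FPKM). The part of these shifts in the value of Pde4d was not tested. Of all markers listed, Dnah5 at Pd7 and Lep at Pd3 and Pd7 were under 0.1 FPKM in all 6 libraries.

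Exons of 5 members shared bases with another annotated gene: Npr1 with Gm16048, Npr2 with Gm12473, Npr3 with Gm5144, Pde3a with Gm28523 and Pde5a with 4930447N08Rik, each on the opposite strand. The use of strand in counting is not given in the sources used here, so whether reads of such pairs were told apart is not known.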

How the data were processed

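The members and the lists of pathway genes and markers were chosen with earlier results of these data known. The authors deposited FPKM values per gene for 18 ovary libraries (TruSeq Stranded mRNA, poly-A selected). Per the labels, the tools were FastQC 0.11.9, Trimmomatic 0.39, STAR 2.7.9a, featureCounts 2.0.1 from Subread and DESeq2 1.36.0, on GRCm38 (mm10), and the annotation version is not given in the sources used here. FPKM is not a count, so limma 3.58.1 (R 4.3.3), with a trend, was run on log2(FPKM + 1), with a Benjamini-Hochberg adjustment over all genes tested. Whole fragments were recovered within a tolerance of 0.02 for 100% of 27294 genes, which held 99.989% of the value total in the library with the lowest share. For a gene above 0 in few libraries some whole numbers will nearly always pass, so this share is no check of the recovery. Of the recovered gene lengths, 96.0% lay within 0.1 of a whole base. Of the recovered genes, those with at least 10 fragments in at least 3 of the 6 libraries of a day entered limma-voom. Both fits were tested on simulated data, and values are given here for the first only. It recovered 200, 197 and 196 of 200 genes changed by 1.5 (log2) at Pd3, Pd7 and Pd21, among 13297, 13240 and 13377 genes tested. It also called 1.18%, 1.40% and 1.84% of the unchanged genes. The changed genes came from those above a set mean level, which Nppc and Npr3 did not reach at Pd3. Smaller changes were not simulated, so the recovery does not extend to lower genes or smaller changes. All 10 members are named whatever their values, other pathway genes when called on any day, and the 5 genes most correlated with Nppc. Gucy1a1 and Gucy1a2 are named beside Gucy1b1 though not called. Alternatives were pseudocount, filter, scaling, a replicate block, 1 model of all libraries, voom and leaving out each library. Exon positions are from GENCODE (GRCm38), promoters from RefSeq (GRCm38.p6). Precision is limited by 3 libraries a group.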

Additional observations from a re-analysis of the deposited data

Results flagged for a closer look

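A change of the diet effect between days was called for 4 members in the model of all 18 libraries, at an unadjusted p, and only that of Npr3 from Pd3 to Pd21 had an adjusted p under 0.05. Lower calls of this kind made up 5.28% of all genes from Pd3 to Pd7, 9.04% from Pd3 to Pd21 and 9.72% from Pd7 to Pd21. For Npr3, the clearance receptor, the effect at Pd7 was lower than at Pd3 by -1.23 (adjusted p = 0.0529), and that at Pd21 was lower than at Pd3 by -1.12 (adjusted p = 0.0194). At Pd3 each of the 3 F1-HHcy libraries lay above the Npr3 controls, while at Pd7 the highest F1-HHcy library and the lowest control were nearly equal, both at 2.50 FPKM, and the difference of -0.23 was not called (adjusted p = 0.303). Both changes between days were called without any 1 library, at -1.45 to -1.06 and -1.34 to -0.95. For Pde5a the effect at Pd21 was lower than at Pd3 by -0.63 (adjusted p = 0.249), a call that was lost without F1-HHcy replicate 1 or 2 or F1-Control replicate 1 or 2 at Pd3, and without F1-HHcy replicate 2 or 3 or F1-Control replicate 3 at Pd21 (-0.63 to -0.52). From Pd7 to Pd21 the effect changed by -1.16 for Npr1 (adjusted p = 0.133) and by -0.88 for Npr2 (adjusted p = 0.112), both kept without any 1 library. Contrasts with Pd21 also contrast the batches.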

How the results depend on the processing

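Of the counts of members called, 98 of the values under an alternative stayed within 1.5 times the main count and 20 did not. At Pd3, 3 members were called in the main test, 1 with an adjusted p as the threshold, 5 on recovered fragments with the fragment filter (chosen after seeing the data) and 1 to 3 without 1 library. Without F1-HHcy replicate 1 or 2 only Nppc was left, without F1-HHcy replicate 3 Nppc and Pde5a, and without F1-Control replicate 2 Nppc and Npr3; Npr3 could not pass the filter with 2 F1-HHcy libraries. At Pd7 the 2 calls became 1 (Npr1) without F1-Control replicate 2, for a range of 1 to 2, and at Pd21 none became 1 (Npr1, lower) without F1-HHcy replicate 1, for a range of 0 to 1, and 1 (Pde4d) on fragments. On fragments 4 to 5 members were called at Pd3, 2 at Pd7 and 1 to 3 at Pd21 without 1 library, the 3 (Nppc, Npr1, Pde4d) without F1-HHcy replicate 1. The 2 at Pd7 were Npr1 and Npr2 except without F1-Control replicate 2, where they were Npr1 and Pde4d (-0.79). Members with a change of the diet effect from Pd3 to Pd7 numbered 1, 3 with pseudocount 0.1 (Npr3, Nppc at -1.66 and Prkg1 at -1.04) and 1 to 2 without 1 library; from Pd3 to Pd21, 2 became 1 to 3, and from Pd7 to Pd21 the 2 stayed 2. With age in F1-Control, 3 became 4 with pseudocount 0.1 (Prkg1 added) and 1 without Pd3 replicate 2 or Pd7 replicate 3, for a range of 1 to 3 (at most 2 without Pd3 replicate 3 or Pd7 replicate 1).
The adjusted p of Nppc at Pd3 ranged from 0.00580 to 0.132 over the alternatives, that of Npr3 at Pd3 from 0.00400 to 0.247 (0.0474 with pseudocount 0.1 and 0.0457 without mitochondrially encoded and hemoglobin genes), that of Npr1 at Pd7 from 0.0303 to 0.143 and that of Npr2 at Pd7 from 0.0227 to 0.130. The replicate block called the same 3, 2 and 0 members, with adjusted p of 0.112 for Nppc and 0.133 for Npr3 at Pd3, and without a filter these were 0.105 and 0.158. Deviations of same-numbered libraries from their group means correlated at -0.20 to -0.14 at Pd3, -0.11 to 0.087 at Pd7 and -0.34 to -0.12 at Pd21. None at Pd3 or Pd21 correlated best with its own number, while replicate 3 at Pd7 did (0.087). Because the deviations are from means of 3 libraries, these values cannot tell whether the libraries were paired. Scaling without mitochondrially encoded and hemoglobin genes moved the median of all genes at Pd7 from -0.0015 to 0.10 and the calls from 1205 higher and 978 lower to 1596 and 687, with Npr1 at 0.90 and Npr2 at 0.91 still called.
Without 1 library some differences that were not called changed sign. The diet effect ranged from -0.22 to 0.085 for Npr2, -0.27 to 0.021 for Npr3, -0.28 to 0.030 for Prkg1, -0.020 to 0.18 for Pde3a and -0.098 to 0.11 for Pde5a at Pd21, and from -0.0056 to 0.34 for Pde5a at Pd7. On fragments it ranged from -0.021 to 0.40 for Pde4d at Pd3, -0.17 to 0.34 for Prkg1 and -0.0014 to 0.39 for Pde10a at Pd7, and -0.58 to 0.57 for Pde10a at Pd21. Age ranged from -0.13 to 0.23 for Npr1 and -0.22 to 0.15 for Npr2 in F1-Control, and from -0.29 to 0.27 for Nppc and -0.055 to 0.098 for Pde10a in F1-HHcy. The change of the diet effect ranged from -0.33 to 0.64 for Nppc, -0.038 to 0.25 for Npr3, -0.22 to 0.19 for Pde10a, -0.24 to 0.017 for Pde3a, -0.32 to 0.024 for Pde5a and -0.31 to 0.0022 for Prkg1 from Pd7 to Pd21, and from -0.25 to 0.0066 for Pde3a from Pd3 to Pd7. The cause of these shifts was not tested.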
